A study of Mus musculus with 20 samples.

Results

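Complement is a system of plasma and cell-surface proteins in which proteases activate each other in a chain on microbes, immune complexes and injured cells. The classical route starts when C1q binds a target and leads through C4 and C2 to the cleavage of C3, and the alternative route amplifies that cleavage with factor B, while factor I and its cofactors inactivate the cleaved C3 and C4. The split products C3a and C5a act on receptors of leukocytes. Most circulating complement is made by the liver, C1q comes mainly from macrophages and other myeloid cells, and kidney tubule cells can make C3 and factor B themselves.

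The complement transcripts followed here are the 3 chains of C1q (C1qa, C1qb, C1qc), the components C3, C4b and Cfb, the inhibitory protease Cfi, and the receptors C3ar1 and C5ar1. These 9 genes were taken by symbol from the 55822 genes of the table, and all 9 were tested. They were measured in poly(A) RNA of whole kidney by bulk RNA sequencing. All mice were 8-week-old male C57BL/6J, an inbred strain, dosed once a day for 6 doses and killed on day 7. The 5 control libraries came from mice that received PBS (phosphate-buffered saline), and 5 libraries came from mice given puberulic acid, a tropolone made by some Penicillium moulds, at 1 mg per day. The labels also describe 5 samples of a normal lot and 5 of a toxic lot of the supplement Choleste-Help at 1000 mg per day; their columns are not analysed here, since their names do not show which lot they hold. The dosing route differs within the labels: one field says oral, while the treatment protocol allows gavage or intraperitoneal injection. No sentence of the labels ties a replicate number to a shared litter or day, so replicate numbers only name the libraries.

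Libraries held 18409877 to 24705587 estimated counts, so 3 counts correspond to 0.158 to 0.195 CPM (the counts-per-million scale) in control libraries and to 0.0964 to 0.128 CPM in puberulic acid libraries. All CPM values below were scaled by TMM factors (trimmed mean of M-values, which align libraries on the bulk of their genes) and are given per library or as mean ± SD with 5 libraries a group. The kidneys of the 2 groups differed widely: edgeR's quasi-likelihood test called 65.3% of 16266 genes at an adjusted p-value under 0.05, 34.2% higher and 31.1% lower with puberulic acid. Non-overlapping CPM values of control and treated libraries were found for 50.1% of genes, 26.1% higher and 24.0% lower. Kidney identity was checked with 8 proximal tubule markers, which were present in all libraries and called lower 8 of 8 times, with a summed level of 13073 to 15685 CPM in controls and 1375 to 2293 CPM with puberulic acid. A few libraries stood apart from their groups and are named where they touch a result. These were control 1 in interferon-stimulated genes, control 4 in macrophage genes, and puberulic acid 3 in fat-cell and adrenal genes. Puberulic acid 1 stood apart in macrophage genes and in several other lists, including tubule markers. In whole tissue, a change in the number of cells of a type and a change in RNA per cell cannot be told apart.

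Against that background, 7 of the 9 complement genes were called higher with puberulic acid (all 3 C1q chains, C3, Cfi, C3ar1 and C5ar1), Cfb was called lower and C4b was not called. Control and treated values were separate for 7 of the 9, the exceptions being C4b and C3ar1. The median log2 fold change was 2.38 over the 9 genes and 0.05 over all genes tested. C3 rose 16.8-fold and C5ar1 10.5-fold, while Cfb fell 3.54-fold. A gene entered the test with at least 0.486 CPM of the raw total in 5 of the 10 libraries. All genes of the 9 except C5ar1 reached that level in every library, and C5ar1 did so in 5 treated and 3 control libraries, so it entered through the group in which it was high. Leaving it aside, 6 of 8 were called higher and 1 lower. These counts are a description of 9 chosen genes in a comparison where most genes were called.

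**Figure D1:**
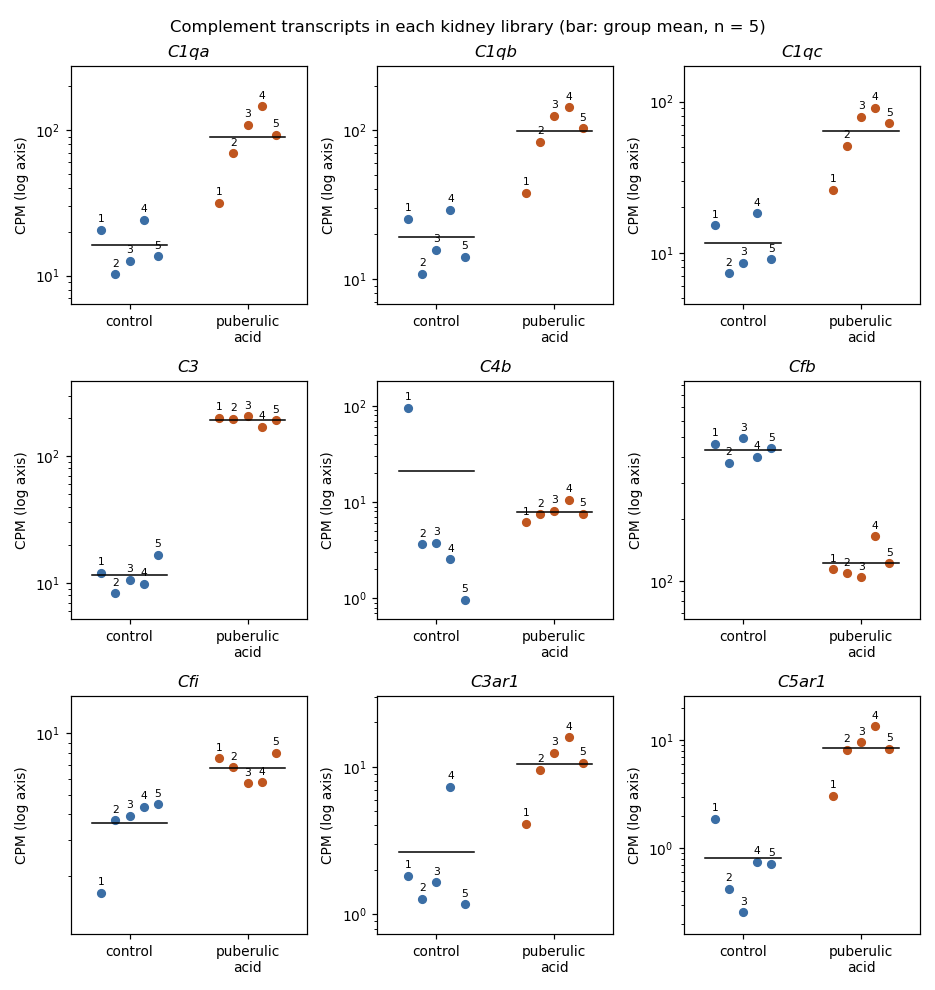
Level of each of the 9 complement transcripts in every library (CPM on a log axis), with controls and puberulic acid side by side, replicate numbers at the points and bars at the group means (n = 5 libraries). C3 is high in all 5 puberulic acid libraries, Cfb is low in all 5, and among the controls C4b is high in control 1 only.

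C1q recognizes bound antibody and altered cell surfaces and is assembled from the products of C1qa, C1qb and C1qc, which lie next to each other on mouse chromosome 4. All 3 transcripts rose more than 5-fold. C1qa (ENSMUSG00000036887) measured 20.7, 10.2, 12.7, 24.3 and 13.6 CPM in controls 1 to 5 and 31.6, 69.5, 109.4, 145.8 and 93.1 CPM in puberulic acid 1 to 5. The lowest treated kidney, puberulic acid 1, still lay above the highest control, control 4. Its mean went from 16.3 ± 5.94 to 89.9 ± 42.8 CPM, a rise of 2.47 ± 0.37 (SE) on the log2 scale (adjusted p = 0.000102).

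C1qb (ENSMUSG00000036905) measured 25.3, 10.8, 15.7, 29.1 and 14.1 CPM in the controls and 38.0, 84.0, 125.1, 143.3 and 103.3 CPM with puberulic acid, with the same lowest and highest libraries as C1qa. Its log2 fold change was 2.38 ± 0.36 (adjusted p = 0.000103). C1qc (ENSMUSG00000036896) measured 15.2, 7.33, 8.59, 18.2 and 9.03 CPM in the controls and 26.0, 50.8, 79.5, 90.6 and 71.9 CPM with puberulic acid. The order of the controls was the same for C1qb as for C1qc except that controls 3 and 5 changed places. The log2 fold change of C1qc was 2.45 ± 0.35 (adjusted p = 6.41e-05).

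The stretches just upstream of the C1qb and C1qc start sites are shown because these chains moved together, and that of C3 because it had the largest fold change of the 9. RefSeq promoters (build GRCm38.p6, minus strand, 250 bases before the start) were matched for 5 of the 9 genes: C1qb, C1qc, C3, C3ar1 and C5ar1. The sequences below lie at chr4:136886201-136886450 for C1qb, chr4:136892915-136893164 for C1qc and chr17:57228137-57228386 for C3. The first bases after the start were found in a GENCODE transcript for the other 4 genes but not for C1qb, so positions in C1qb count from the RefSeq start alone. Capitals mark the core letters of PU.1, a transcription factor of myeloid cells, in C1qb and C1qc, and the letters of a C/EBP motif, bound by factors of the acute phase response, in C3.
C1qb: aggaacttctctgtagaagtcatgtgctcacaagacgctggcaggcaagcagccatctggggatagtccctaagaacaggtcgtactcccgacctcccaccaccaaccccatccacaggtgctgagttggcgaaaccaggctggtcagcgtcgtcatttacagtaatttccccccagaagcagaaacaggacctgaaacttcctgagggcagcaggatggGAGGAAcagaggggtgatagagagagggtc
C1qc: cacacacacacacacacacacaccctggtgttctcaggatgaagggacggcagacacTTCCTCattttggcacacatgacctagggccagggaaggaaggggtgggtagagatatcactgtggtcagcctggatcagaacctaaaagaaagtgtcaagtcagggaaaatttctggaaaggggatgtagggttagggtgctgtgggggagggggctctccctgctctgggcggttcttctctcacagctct
C3: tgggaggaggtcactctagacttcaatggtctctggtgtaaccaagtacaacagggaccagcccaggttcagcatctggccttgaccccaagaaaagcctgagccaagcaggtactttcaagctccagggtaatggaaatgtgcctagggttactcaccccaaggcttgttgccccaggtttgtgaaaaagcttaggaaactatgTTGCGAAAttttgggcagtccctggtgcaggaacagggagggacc
The PU.1 core GAGGAA, like every motif named here, was searched on both strands and found at position -30 of C1qb and, as TTCCTC, at position -193 of C1qc, counted from the start site, and 23.3% of 32851 promoters of the same length hold it. The C/EBP letters TTGCNNAA begin at position -45 of C3 and occur in 9.56% of promoters. An NF-kB motif, written as GGG, 2 bases of any kind and TTTCC, was found in reverse orientation in C3ar1 at position -14 and occurs in 1.41% of promoters. The interferon-gamma-activated site TTCNNNGAA (7.02% of promoters) and the interferon-stimulated response element, written as GAAA, 2 bases of any kind and GAAA (2.98%), were in none of the 5 windows. A match describes the letters in the window and is not a measured binding site.

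C3 (ENSMUSG00000024164) encodes the component on which all routes converge. It measured 12.0, 8.28, 10.6, 9.85 and 16.7 CPM in the controls and 200.9, 195.6, 205.7, 169.3 and 191.1 CPM with puberulic acid. All treated kidneys were far above all controls, and the treated kidneys were close to each other. The mean rose from 11.5 ± 3.21 to 192.5 ± 14.1 CPM (log2 fold change 4.07 ± 0.17 SE, adjusted p = 8.65e-09). The coefficient of variation (SD over mean) among treated libraries was 7.32% for C3, against 47.6% for C1qa and 41.1% for C1qb.

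Cfb (ENSMUSG00000090231) encodes factor B, the protease of the alternative-route convertase. It measured 466.1, 374.9, 494.6, 401.0 and 442.9 CPM in the controls and 114.3, 109.0, 104.6, 165.2 and 122.3 CPM with puberulic acid. Every treated kidney was below every control, and puberulic acid 4 was the highest of the treated. The mean fell from 435.9 ± 48.3 to 123.1 ± 24.5 CPM, with a log2 fold change of -1.82 ± 0.14 (adjusted p = 4.02e-07). C3 and Cfb, which form the alternative convertase together, thus moved in opposite directions in the same libraries. C2, the classical-route counterpart of factor B and the neighbour of Cfb on chromosome 17, measured 57.6, 33.3, 39.2, 34.1 and 59.2 CPM in the controls and 11.1, 12.8, 12.7, 19.0 and 12.8 CPM with puberulic acid. It fell like Cfb, with a log2 fold change of -1.71 ± 0.20 (adjusted p = 1.56e-05). Gm20547, a gene model that overlaps both C2 and Cfb, had 0 to 22 counts per library, and reads of the 3 overlapping models may be shared out between them.

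C4b (ENSMUSG00000073418) encodes complement C4, which follows C1q in the classical route. It measured 95.4, 3.64, 3.75, 2.55 and 0.974 CPM in controls 1 to 5 and 6.16, 7.5, 8.13, 10.6 and 7.52 CPM with puberulic acid. Control 1 stood at 34.9 times the mean of the other 4 controls, and without it every treated kidney lay above every control. With all 10 libraries the log2 fold change was -1.42 ± 1.01 (adjusted p = 0.235), which was not called. Without control 1 it was 1.53 ± 0.33 (edgeR, adjusted p = 0.00192), called higher and opposite in sign. The direction of C4b therefore rests on 1 library. In the fit without control 1, 8 of the 9 genes were called higher and Cfb lower, where 65.6% of 16685 genes were called, 35.0% higher and 30.6% lower. DESeq2 gave C4b no adjusted p-value.

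The near-identical gene C4a shares 95.9% of bases with C4b between their longest transcripts, so the split of reads between them is uncertain. C4a itself measured 0.13 to 2.55 CPM in controls and was not called, with a log2 fold change of -0.08 ± 0.71 (adjusted p = 0.926). The sum of both genes was 97.8 CPM in control 1, 1.1 to 5.11 CPM in the other controls and 6.87 to 12.7 CPM with puberulic acid, so the pattern of C4b was also that of the sum.

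Cfi (ENSMUSG00000058952) encodes factor I, the protease that inactivates C3b and C4b. It measured 1.65, 3.74, 3.95, 4.36 and 4.48 CPM in the controls and 7.53, 6.82, 5.68, 5.75 and 8.03 CPM with puberulic acid. Control 1 was the lowest control, and the groups did not overlap. The mean went from 3.64 ± 1.15 to 6.76 ± 1.05 CPM, with a log2 fold change of 0.90 ± 0.25 (adjusted p = 0.00667), the smallest rise of the 7. Without control 1 it was 0.70 ± 0.17 (edgeR, adjusted p = 0.00343), which is 1.62-fold in place of 1.86-fold.

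C3ar1 (ENSMUSG00000040552) encodes the receptor of C3a. It measured 1.83, 1.27, 1.65, 7.35 and 1.17 CPM in the controls and 4.12, 9.5, 12.5, 15.9 and 10.6 CPM with puberulic acid. Control 4 was 4.97 times the mean of the other controls and lay above puberulic acid 1, so the groups overlapped. The log2 fold change was 1.99 ± 0.52 (adjusted p = 0.00526), and 2.81 ± 0.37 without control 4 (adjusted p = 6.62e-05), which is 7.02-fold in place of 3.97-fold. Without control 1 it was 3.65-fold (edgeR, adjusted p = 0.0139).

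C5ar1 (ENSMUSG00000049130) encodes the main receptor of C5a on myeloid cells. It measured 1.88, 0.422, 0.255, 0.748 and 0.714 CPM in the controls and 3.04, 8.14, 9.57, 13.5 and 8.29 CPM with puberulic acid. Control 1 was the highest control at 3.52 times the mean of the others, and puberulic acid 1 was the lowest treated kidney, yet the groups did not overlap. The mean went from 0.804 ± 0.637 to 8.51 ± 3.75 CPM, with a log2 fold change of 3.39 ± 0.50 (adjusted p = 8.97e-05). Without control 1 the rise was 15.7-fold in place of 10.5-fold. With any 1 library left out the log2 fold change ran from 3.12 to 3.97. C5ar2, the second C5a receptor and the neighbour of C5ar1, had 3 to 5 counts per control library, under the minimum of the filter, and was at 1.32 ± 0.533 CPM with puberulic acid. It entered the test only through the treated group, so its call is not counted as support.

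The remaining complement genes did not share one direction. Of 53 others, 34 were tested, 13 were called higher and 13 lower, and their median log2 fold change was 0.21. Over all genes tested 34.2% were called higher and 31.1% lower, so this split was near that of the whole comparison. With total-count scaling 16 were called higher and 4 lower. Fcnb and Vsig4 had no counts in any library. Of the 34, 27 reached the filter's minimum in every library, 11 of them called higher and 10 lower. Among the 14 further genes of the classical and lectin routes, 8 were tested, 1 was called higher and 3 lower. C1s1, the protease that C1q carries, went from 14.3 ± 3.53 to 23.5 ± 7.63 CPM with overlapping groups (log2 fold change 0.72 ± 0.23, adjusted p = 0.0163), and 0.51 without puberulic acid 5 (adjusted p = 0.0592). Masp2, the lectin-route protease, fell from 1.69 ± 0.321 to 0.391 ± 0.226 CPM (log2 fold change -2.09 ± 0.35, adjusted p = 0.000209), and entered the test through the control group alone.

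Of the alternative route, Cfp (properdin, which stabilizes the convertase and is made by leukocytes) was tested and rose. It measured 2.28, 1.37, 1.59, 4.61 and 3.7 CPM in the controls and 4.27, 17.3, 27.7, 31.0 and 24.1 CPM with puberulic acid, so only puberulic acid 1 lay within the control range. The log2 fold change was 2.95 ± 0.50 (adjusted p = 0.00025). Cfp, C1q, C3ar1 and C5ar1 were all lowest in the same treated kidney, puberulic acid 1.

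In the terminal route, which builds the membrane attack complex, 3 of 7 genes were tested and 2 were called lower. C8a fell from 29.0 ± 5.59 to 4.66 ± 1.34 CPM (log2 fold change -2.63 ± 0.20, adjusted p = 5.39e-07). C8g fell from 15.6 ± 2.85 to 4.51 ± 1.43 CPM (log2 fold change -1.79 ± 0.21, adjusted p = 1.57e-05). The groups did not overlap for C8a or for C8g. C7, the other tested gene, went from 3.06 ± 1.11 to 5.38 ± 2.76 CPM and was not called (log2 fold change 0.82 ± 0.36, adjusted p = 0.0603). With total-count scaling, 1 of the 3 was called higher and 2 lower. Hc, which encodes C5, was not tested, at 0 to 0.125 CPM in controls and 0.297 to 2.81 CPM with puberulic acid. C6, C8b and C9 were not tested either, so no direction is given for the route as a whole.

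Of 10 soluble regulators, 6 were tested and 5 were called higher, or 4 of the 5 that reached the filter's minimum in every library. Clu (clusterin, an inhibitor of the terminal complex and a known transcript of injured tubules) rose from 302.7 ± 81.2 to 1951 ± 724.8 CPM (log2 fold change 2.69 ± 0.29, adjusted p = 6.26e-06). C4bp, a cofactor of factor I for C4b, had 1 to 7 counts per control library and was at 2.76 ± 1.00 CPM with puberulic acid, and it entered the test only through the treated group. Cpb2, a carboxypeptidase that inactivates C3a and C5a, rose from 1.74 ± 0.767 to 10.2 ± 3.69 CPM (log2 fold change 2.54 ± 0.38, adjusted p = 9.43e-05).

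Of 11 membrane regulators, 8 were tested, 5 were called lower and 1 higher, but with libraries scaled by total counts none was called lower and 1 higher. Cd55, which speeds the decay of convertases, fell from 23.8 ± 5.95 to 13.9 ± 1.84 CPM (log2 fold change -0.78 ± 0.17, adjusted p = 0.00177). Cd59b, a blocker of the membrane attack complex, had a fall of -0.91 ± 0.26 on the log2 scale (adjusted p = 0.00816). Susd4, a regulator of convertases, had one of -0.85 ± 0.18 (adjusted p = 0.00129). Thbd (thrombomodulin), a cofactor in the activation of the Cpb2 product, was the gene called higher, with a log2 fold change of 1.78 ± 0.20 (adjusted p = 8.55e-06).

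Of 9 other receptors and binding proteins, 8 were tested, 5 were called higher and 3 lower, or 4 and 2 of the 6 that reached the filter's minimum in every library. With total-count scaling 5 were called higher and none lower. Itgam and Itgax, the alpha chains of complement receptors 3 and 4 for cleaved C3, rose by 3.78 ± 0.53 (adjusted p = 5.46e-05) and 3.83 ± 0.47 (adjusted p = 2.12e-05) on the log2 scale. Without control 4 the rise of Itgam was 22.6-fold in place of 13.7-fold, and without control 1 it was 11.9-fold. Cr2, a B-cell receptor for C3 fragments, was lower (log2 fold change -1.28 ± 0.44, adjusted p = 0.0231), but not called without control 3 (-0.97, adjusted p = 0.0755) or with total-count scaling (-0.78, adjusted p = 0.134). C1qbp and Calr, proteins of mitochondria and of the endoplasmic reticulum that can bind C1q, were lower, at -0.46 ± 0.10 (adjusted p = 0.00121) and -0.46 ± 0.08 (adjusted p = 0.000286), but with total-count scaling both were at 0.05 and not called.

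**Figure D2:**
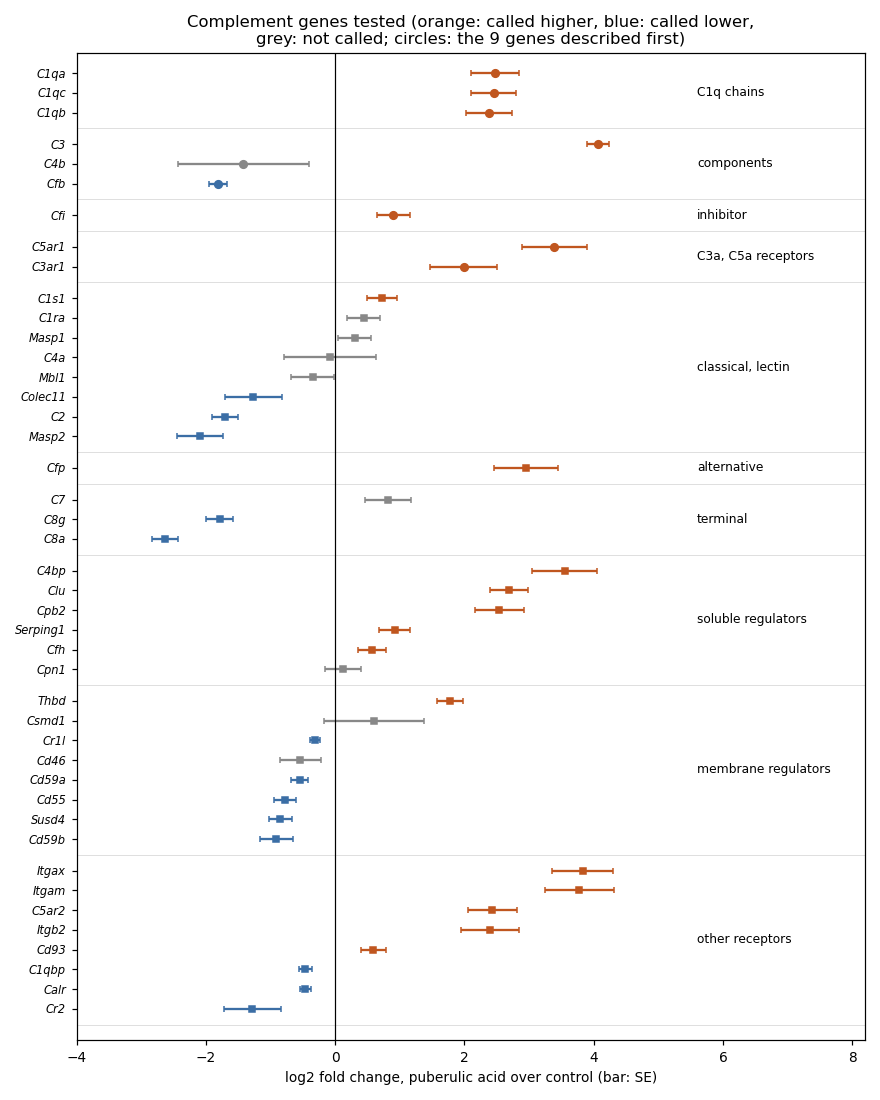
Log2 fold change (puberulic acid against control, bars: SE, n = 5 libraries a group) of the 9 complement genes and of the other tested complement genes, grouped by role. The soluble regulators lie mostly to the right of 0 and the membrane regulators mostly to the left, and C4b has the widest bar of the 9.

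Ratios between transcripts of the same library do not depend on how libraries are scaled, apart from a pseudocount of 0.5 CPM. They were compared by exact two-sided permutation tests, whose smallest possible p-value is 0.00794, adjusted over 8 ratios. The ratios between the C1q chains were close in both groups: log2 C1qa/C1qb was -0.19 ± 0.12 in controls and -0.17 ± 0.12 with puberulic acid (exact adjusted p = 0.77). Log2 C1qc/C1qb was -0.67 ± 0.11 and -0.62 ± 0.09 (exact adjusted p = 0.517), so neither chain ratio differed beyond the spread between libraries.

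C1qb rose relative to Csf1r, a receptor carried by macrophages: the log2 ratio was -1.71 ± 0.35 in controls and 0.36 ± 0.35 with puberulic acid, a 4.20-fold difference with no overlap (exact p = 0.00794, adjusted p = 0.0212). Relative to Adgre1, the macrophage marker F4/80, C1qb was 0.77 higher on the log2 scale, which did not pass after adjustment (exact p = 0.0397, adjusted p = 0.0635) but did without control 1 (0.93, exact adjusted p = 0.0317) or without puberulic acid 5 (0.9, exact adjusted p = 0.0381). Log2 C3ar1/C5ar1 was 1.11 ± 1.04 in controls and 0.30 ± 0.08 with puberulic acid (exact adjusted p = 0.169), with a wide spread among controls and a narrow one among treated kidneys. Without control 1 that difference was -1.09 (exact adjusted p = 0.0159), but C5ar1 in controls 2 and 3, at 0.422 and 0.255 CPM, lay under the pseudocount of 0.5 CPM, which largely sets those ratios. Csf1r and Adgre1 were among the macrophage markers that were not called: Cd68 (3.83), Cd14 (3.60) and Ccr2 (3.07) had larger log2 fold changes than C1qb (2.38), and C1qb was not tested relative to them. The log2 ratio of C5ar1 to the neutrophil receptor gene Csf3r was 0.13 ± 0.60 in controls and 1.70 ± 0.50 with puberulic acid, with puberulic acid 1, at 0.86, just below control 1, at 0.88. Both genes were near the pseudocount in controls and entered the gene test only through the treated group, so this difference is given as a description.

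The ratios of the inhibitor Cfi to C3 and to Cfb moved in opposite ways. They mostly carry the log2 fold changes of C3 (4.07) and Cfb (-1.82), since Cfi itself changed by 0.90. The 2 tests below are therefore no separate result about Cfi. Log2 Cfi/C3 went from -1.55 ± 0.62 to -4.74 ± 0.21, a 9.10-fold lower ratio of inhibitor to substrate transcript (exact p = 0.00794, adjusted p = 0.0212). Log2 Cfi/Cfb went from -6.77 ± 0.57 to -4.08 ± 0.38, a 6.46-fold higher ratio (exact p = 0.00794, adjusted p = 0.0212). Neither ratio overlapped between groups.

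**Figure D3:**
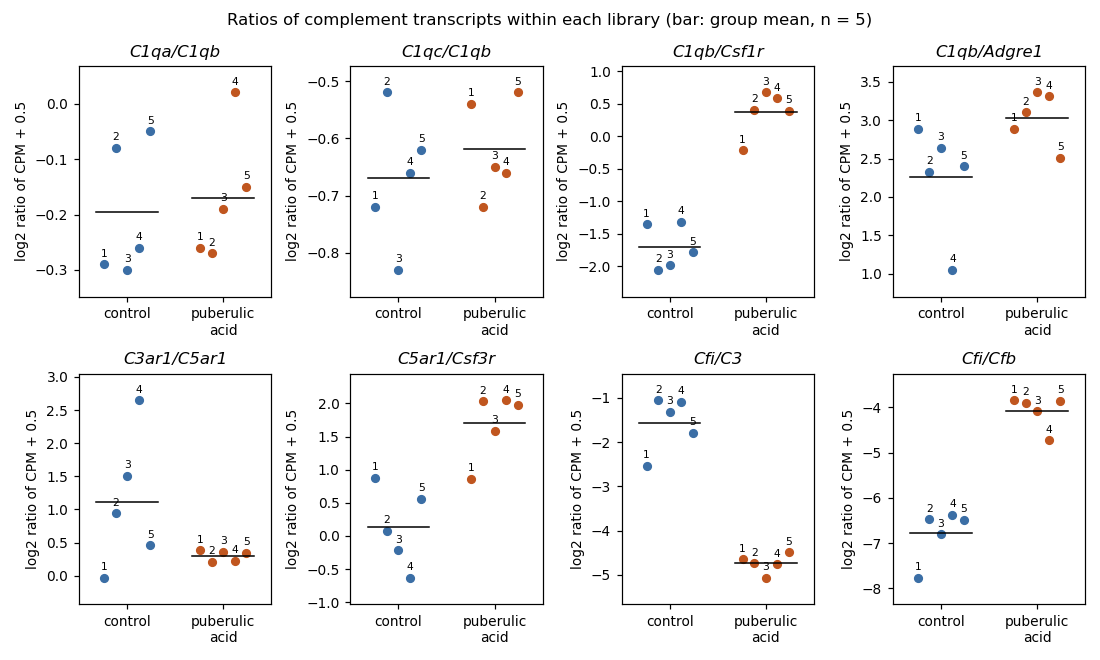
Log2 ratios of 8 pairs of transcripts within each library (CPM + 0.5), with replicate numbers at the points and bars at the group means (n = 5 libraries). The C1q chain ratios overlap between the groups, whereas C1qb/Csf1r, Cfi/C3 and Cfi/Cfb do not.

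Several macrophage transcripts were low in the same treated library as C1q and the receptors, puberulic acid 1, and among the controls they did not all peak in one library. Of 15 macrophage and monocyte markers, 14 were tested and 10 were called higher, with none lower. Of the 11 that reached the filter's minimum in every library, 8 were called higher. Their summed level was 105.9 to 202.8 CPM in controls, highest in control 4, and 209.0 to 655.0 CPM with puberulic acid, lowest in puberulic acid 1. Cd68, a lysosomal macrophage protein, rose from 2.71 ± 1.04 to 38.7 ± 3.65 CPM (log2 fold change 3.83 ± 0.22, adjusted p = 5.89e-08). Lyz2, the lysozyme of myeloid cells, had a log2 fold change of 2.43 ± 0.53 (adjusted p = 0.0016). Csf1r, at 59.9 ± 11.3 and 72.1 ± 19.2 CPM, was not called (log2 fold change 0.27 ± 0.19, adjusted p = 0.234), nor was Adgre1 (1.33 ± 0.57, adjusted p = 0.0564). Without control 4 Adgre1 was called, at 2.33 ± 0.36 (adjusted p = 0.00021), and without puberulic acid 1 both were, Csf1r at 0.38 ± 0.15 (adjusted p = 0.0452) and Adgre1 at 1.51 ± 0.55 (adjusted p = 0.03). With total-count scaling both were called too, at 0.78 ± 0.19 (adjusted p = 0.00335) and 1.85 ± 0.58 (adjusted p = 0.0126), and 13 of the 14 markers were called higher.

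Puberulic acid 1 stood at 30.3% of the mean of the other treated libraries for C1qa, 33.4% for C1qb, 35.5% for C1qc, 34.0% for C3ar1 and 30.8% for C5ar1. For the marker genes it stood at 35.6% for Adgre1, 56.4% for Csf1r, 81.4% for Cd68, 27.3% for Itgam, 20.7% for Lyz2 and 17.1% for Cfp. The same library was at 105.5% for C3, 114.7% for Cfi and 91.2% for Cfb. Its C1q and receptor transcripts were low together with most of these markers, Cd68 being the least reduced, while C3, Cfi and Cfb were near the other treated kidneys. Puberulic acid 1 was not apart in macrophage genes alone. Its interferon-stimulated genes summed to 432.3 CPM, against 794.8 to 1857 CPM in the other treated libraries. Fibroblast markers summed to 498.3 against 678.0 to 1825 CPM. Proximal tubule markers were highest there, at 2293 against 1375 to 1503 CPM, as were distal nephron markers, at 6530 against 3291 to 4198 CPM. For lymphocyte and for podocyte and endothelium markers it lay among the others. In the controls, control 4 was 6.09 times the mean of the others for Adgre1, 4.35 times for Itgam, 4.97 times for C3ar1 and 1.77 times for C1qb, but 0.914 times for C5ar1. C5ar1 was highest in control 1, as were the monocyte genes Ly6c2 at 5.9 times, Fcgr1 at 5.62 times and Ccr2 at 3.47 times, which were picked after their values were seen. Of the 15 markers, 4 were at least 2-fold over the other controls in control 1 and 4 in control 4. The part of cell numbers in these differences was not tested.

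**Figure D4:**
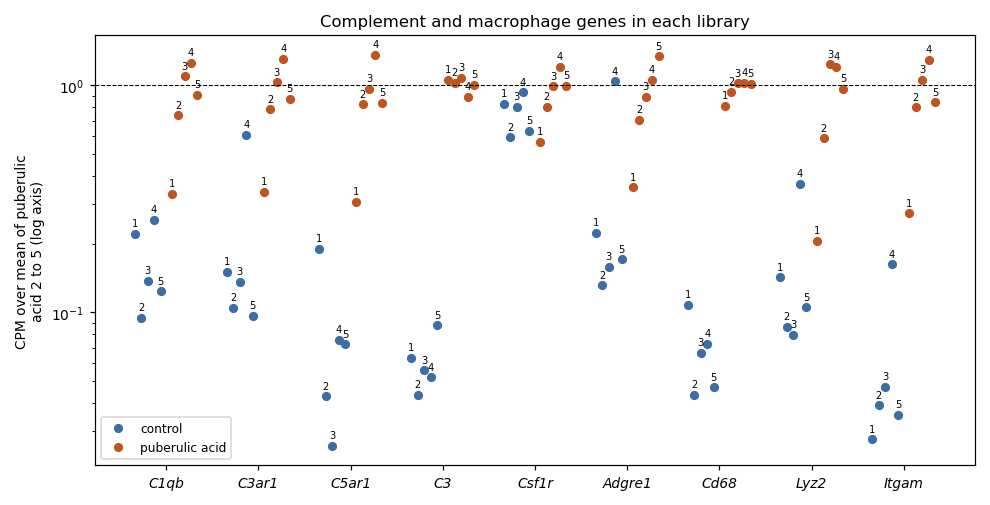
CPM of complement and macrophage genes in each library, divided by the gene's mean in puberulic acid 2 to 5 (log axis; 1 point a library, 5 a group, replicate numbers at the points, dashed line at a ratio of 1). Puberulic acid 1 lies below the other treated libraries for C1qb, C3ar1, C5ar1, Adgre1, Lyz2 and Itgam, but not for C3, and control 4 is the highest control for C3ar1, Adgre1 and Lyz2.

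Markers of other cells that make or bind complement were examined in the same way. Of 10 neutrophil markers 4 were tested and 2 were called higher, their sum was 1.34 to 3.93 CPM in controls and 4.16 to 8.48 CPM with puberulic acid, and Ly6g had no counts in any library. S100a8, an abundant neutrophil transcript, was at 0.146 and 0.348 CPM on average. Csf3r went from 0.662 ± 0.472 to 2.11 ± 0.701 CPM and, like the other called neutrophil gene and both called lymphocyte genes, entered the test only through the treated group. Of 10 lymphocyte markers 5 were tested and 2 were called higher, with sums of 4.49 to 7.13 CPM in controls and 4.86 to 13.2 CPM with puberulic acid. The called genes were the T-cell genes Cd4, at 0.476 ± 0.281 and 2.67 ± 1.96 CPM, and Cd3d, at 0.422 ± 0.153 and 1.04 ± 0.501 CPM. Cd3e, another chain of the T-cell receptor complex, was not called (log2 fold change 0.35 ± 0.48, adjusted p = 0.543), and the B-cell gene Cd79a was below the filter. Of 7 fibroblast and pericyte markers, which cover cells that can make C1s, C1r and C3, all were tested and 6 were called higher, or 5 of the 6 that reached the filter's minimum in every library, with sums of 113.0 to 179.5 CPM in controls and 498.3 to 1825 CPM with puberulic acid. Col1a1, a collagen chain, rose 17.7-fold (log2 fold change 4.14 ± 0.39, adjusted p = 2.44e-06). The part of these cells in the complement differences was not tested. Of 8 hepatocyte markers, 6 were tested, 4 were called lower and 1 higher, and their sum was 309.9 to 397.0 CPM in controls and 167.3 to 265.0 CPM with puberulic acid. In controls most of that sum was Apob and Ttr, both called lower, while Serpina1a was called higher (log2 fold change 0.75 ± 0.28, adjusted p = 0.0328). No hepatocyte marker was called higher without control 1 or 3, without puberulic acid 2, 3, 4 or 5, or with the replicate number as a block. Of 17 other genes of the acute phase response, to which C3 is also counted, 14 were tested. Of these, 8 reached the filter's minimum in every library and all 8 were called higher, and the other 6 entered only through the treated group. Saa1, an acute phase apolipoprotein, had at most 1 count in any control library and was at 12.0 CPM on average with puberulic acid, and Saa3 was below the filter.

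Interferon-stimulated genes set control 1 apart from the other controls. All 25 genes of the list were highest in control 1 among the controls, with a median ratio of 7.04 to the mean of the other 4 and a range from 2.15 for Rsad2 to 44.8 for Gbp2. Their summed level was 1930 CPM in control 1, 175.0 to 214.6 CPM in controls 2 to 5 and 432.3 to 1857 CPM with puberulic acid. Among single genes, Isg15 measured 18.5 CPM in control 1, 1.48 to 2.8 CPM in the other controls, and 9.87, 26.3, 42.7, 78.1 and 31.1 CPM with puberulic acid. Control 1 thus lay above the other controls and within the range of the treated kidneys for Isg15.

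The complement genes did not all share this pattern. C4b in control 1, at 34.9 times the other controls, was within the range of the interferon genes, and C5ar1 stood at 3.52 times. C3 at 1.06, Cfb at 1.09 and C1qb at 1.45 times were near the other controls, and Cfi was at 0.4 times. With all libraries, 15 of the 25 interferon genes were called higher and none lower, or 11 of the 21 that reached the filter's minimum in every library: on the log2 scale Isg15 rose by 2.78 ± 0.73 (adjusted p = 0.00521) and Irf7 by 2.15 ± 0.66 (adjusted p = 0.0121), and Ifit1, at 1.66 ± 0.77 (adjusted p = 0.0751), was not called. Without control 1 all 25 were called higher, as was C4b, with Isg15 at 17.2-fold in place of 6.87-fold, Irf7 at 9.3-fold in place of 4.45-fold and Ifit1 at 9.95-fold in place of 3.16-fold. The part of the interferon genes in the level of C4b was not tested.

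**Figure D5:**
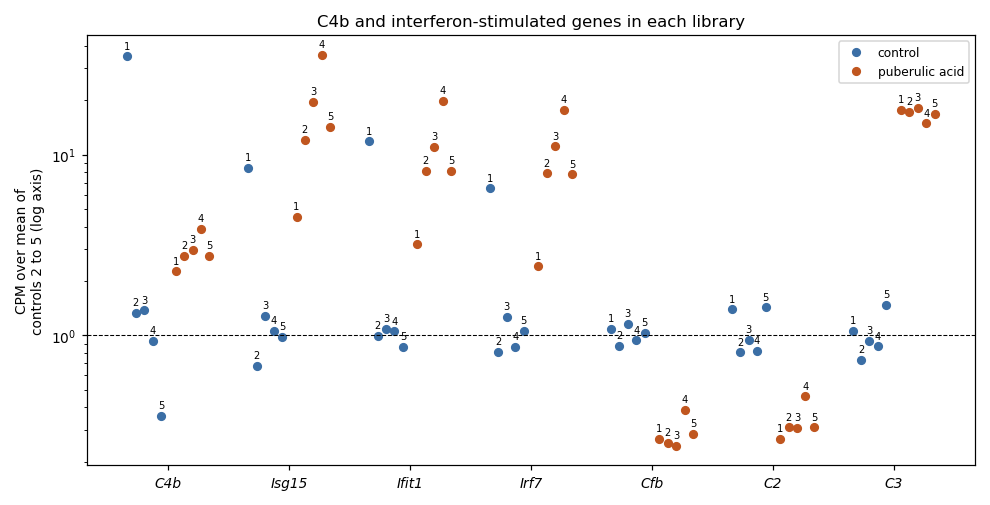
CPM of C4b, of 3 interferon-stimulated genes and of Cfb, C2 and C3 in each library, divided by the gene's mean in controls 2 to 5 (log axis; 1 point a library, 5 a group, replicate numbers at the points, dashed line at a ratio of 1). Control 1 stands at 34.9 for C4b, above every treated library, and at 8.48 for Isg15, among them, while for Cfb, C2 and C3 it lies among the controls.

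Puberulic acid 3 differed from the other treated kidneys in Cfd, which encodes factor D (adipsin), the protease that activates factor B and is made chiefly by fat cells. Cfd was not tested and was singled out after its values were seen. It measured 130.1 CPM in puberulic acid 3, 0 to 1.75 CPM in the other treated kidneys and 0.0623 to 0.527 CPM in controls. In that library 6 fat-cell markers, a list also chosen after the values were seen, summed to 315.3 CPM, against 33.5 to 62.6 CPM in the other treated kidneys, and 6 adrenal markers summed to 40.0 CPM, against 1.37 to 3.47 CPM. C3 in puberulic acid 3, at 205.7 CPM, was near the 169.3 to 200.9 CPM of the others. Without puberulic acid 3 the 9 genes gave the same counts, 7 called higher, 1 lower and 1 not called.

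The genes whose levels followed C1qb and C3 most closely within the groups were found by the Pearson correlation of log2 CPM with each group's mean subtracted, over the 10 libraries and 12413 genes. For C1qb they were Basp1 (r = 0.988), Tmem81 (0.988), Cd52 (0.987), Nckap1l (0.981) and Plek (0.981), of which Cd52, Nckap1l and Plek are known from leukocytes. Basp1 had a log2 fold change of 3.05, Plek of 3.19, Nckap1l of 2.52 and Cd52 of 2.22, whereas Tmem81 had -0.83, all called. For C3 those reported are Cbl (r = 0.951), Wdr44 (0.901), Acvr2b (0.894) and Olfr1336 (0.890). Cbl, an E3 ubiquitin ligase, had a log2 fold change of 1.08 and Olfr1336 of -0.15, which was not called, so closeness within groups did not go with one direction between groups. These correlations are a description: the libraries share their scaling, and only the highest of the 12413 genes are shown.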

How the data were processed

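Per the labels' protocols, RNA of kidneys with an integrity number above 7.5 was poly(A)-selected and sequenced with a directional kit. The deposited values were estimated counts for each gene (fractional, with no stated normalization). The submitters' processing notes name fastp 0.22.0, FastQC 0.12.1, MultiQC 1.28, Salmon 1.10.3, DESeq2 and GRCm39, without role or order. Ensembl identifiers were matched to symbols for 51344 of 55822 genes, holding 99.3% of the counts. The 10 columns whose names do not show a supplement lot were not used.

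Estimated counts were rounded, filtered with filterByExpr, scaled by TMM and tested with edgeR 4.0.16 (glmQLFit, glmQLFTest, robust off; limma 3.58.1, R 4.3.3) on the 5 control and 5 puberulic acid libraries, with Benjamini-Hochberg adjustment over 16266 genes and calls at an adjusted p under 0.05. SE is the log2 fold change divided by the root of F. On 3 simulated tables with 200 genes changed 4-fold, 99.7% were recovered and 4.01% of calls were unchanged genes. Those tables used the same spread for every gene and changed few genes, whereas 65.3% of genes were called here. The simulated rates therefore check the code and do not give the error rate of this comparison. Ratios were tested by exact two-sided permutation over 252 assignments (scipy 1.17.1). The labels do not say whether each library came from its own mouse, so p-values measure the spread between libraries. The limit of 3 counts covers counting error only.

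The genes and lists were chosen with earlier results of these data known. Named besides the 9 genes were, in each complement list and direction, the 3 called genes with the largest log2 fold change and a group mean of at least 1 CPM, the 5 genes most like C1qb and C3, and listed markers; 1 gene that followed C3 is not reported here. Alternatives were RLE, upper-quartile and total-count scaling, no filter or a minimum of 1 CPM in 5 samples, a robust fit, DESeq2 1.42.0, omitting mitochondrial and the 10 most abundant genes, the replicate number as a block, other pseudocounts, each library left out and, chosen after seeing the data, controls 1 and 4 both left out.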

Additional observations from a re-analysis of the deposited data

Results flagged for a closer look

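The search covered 72 groups of 5 values: the 9 genes, the 19 other complement genes picked by the naming rule above and the 8 ratios, in each group. Complement genes named outside that rule, such as C4a and Cfd, were not searched. In 8 groups a library's gap to its nearest neighbour was more than 0.71 of the whole range. About 3.6 would be flagged by chance if the groups were independent and their values normal. CPM values of genes that move together, and ratios of the same genes, do not meet this, so 8 is not read as an excess. Control 1 was high for C4b (95.4 CPM, gap 0.971 of the range) and for Itgax (4.28 CPM, 0.836), and low for Cfi (1.65 CPM, 0.739) and for C5ar2 (0.171 CPM, 0.845), the last being 3 counts against 4 or 5 in the other controls. Control 4 was high for C3ar1 (7.35 CPM, 0.894) and for Itgam (5.05 CPM, 0.855). Puberulic acid 4 was high for C2 (19.0 CPM, 0.783) and low for log2 Cfi/Cfb (-4.73, 0.719).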

How the results depend on the processing

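Of the 9 genes, 7 were called higher and 1 lower under every scaling and filter tried, the robust fit, the replicate block and DESeq2, and 7 or 8 higher and 1 lower with any 1 library left out. C4b was the exception: its log2 fold change of -1.42 became 1.53 without control 1, 1.49 without controls 1 and 4, and 0.82 with the replicate block (adjusted p = 0.469), and left-out values ran from -1.73 to 1.53. Scaling by total counts moved the median of all genes from 0.05 to 0.56 and the share of calls that were higher from 52.4% to 78.4%; the other complement genes then gave 16 higher and 4 lower, C1qbp and Calr changed sign to 0.05, and C4a, Mbl1 and Cr1l also changed sign. The ratio C1qb/Adgre1 passed with a pseudocount of 1 (0.87, exact adjusted p = 0.0254). With libraries left out, the differences ran from -0.03 to 0.06 for C1qa/C1qb (0.0 without control 1 or control 3, -0.03 without puberulic acid 4), 0.47 to 0.93 for C1qb/Adgre1 and -1.09 to -0.41 for C3ar1/C5ar1. Replicate numbers did not pair the libraries: same-numbered libraries correlated at -0.17 to 0.02. With the replicate block, 5416 genes were called higher and 4909 lower; the ratios, tested by sign flips whose smallest p is 0.0625, could not pass (C1qb/Csf1r 2.07, C5ar1/Csf3r 1.57, Cfi/C3 -3.19, Cfi/Cfb 2.69). Of the other complement genes, DESeq2 called 17 higher and 13 lower, and edgeR 11 and 11 without controls 1 and 4.

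Depth limits C5ar2, C4bp and S100a8, whose control counts were few. Promoters were read for 5 of the 9 genes. The 2 supplement lots are not analysed here.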
